A study of Mus musculus with 12 samples.

Results

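The collagen genes of epididymal white adipose tissue (eWAT) were compared between mice fed 4 diets. A gene was taken as a collagen gene if its name in the deposited expression table was *Col*, a number, a and a number, and 44 of the 23060 genes in the table met this rule. They were divided into 11 fibrillar collagens, 6 basement membrane collagens (the type IV chains) and 27 other collagens. All mice were male C57BL/6J mice, labelled as 21 weeks old, whose diets had begun at the age of 5 weeks and lasted 16 weeks. The groups were a normal diet (ND), a high-fat diet (HFD), the HFD with an ethanol extract of chrysanthemum leaf (CLE) at 1.5% (*w*/*w*) and the HFD with 0.003% (*w*/*w*) luteolin (LU), a flavone. Each group had 3 mice, which the study's methods call representative, and each mouse had 1 library, so there were 12 libraries.

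Collagens are the main structural proteins of the extracellular matrix, and each molecule is a triple helix of chains encoded by 1 or more genes. Fibrillar collagens (types I, III and V in most soft tissues) form the fibres of the stroma, type IV forms the sheet of the basement membrane that surrounds each adipocyte and each vessel, and type VI forms beaded filaments between them. Fibroblasts and progenitor cells are the main source of fibrillar collagen, while adipocytes and endothelial cells also make type IV chains. Obese adipose tissue is known for the deposition of collagen around its cells.

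The values are fragments scaled by transcript length and by the number of mapped fragments (FPKM), summed over the transcripts of each gene. The whole tissue was extracted, so a lower value can stand for fewer cells of a type or for less RNA per cell, and these cannot be told apart. A gene was tested if it reached 1 FPKM in at least 3 libraries, with limma on log2(FPKM + 1), and was called where its p, adjusted by Benjamini and Hochberg's method, was under 0.05 and its fold change over 1.5. Fold changes are differences on this log2(FPKM + 1) scale, on which genes with low FPKM seem to change less than they do. The depth behind the values is unknown, since FPKM carry no read counts. For each gene the p-values rest on 1 estimate of the spread within groups, shared by the 4 groups of 3 mice. As a percent of the mean, the median SD over 24 tested collagens was 23.7% (ND), 8.54% (HFD), 19.9% (CLE) and 13.7% (LU). Gene totals lay between 437334 and 457181 FPKM a library, and mice of 1 group correlated across genes at a Pearson's r of 0.9785 to 0.9915. The labels of 4 libraries, from LU mouse 2, CLE mouse 4 and ND mice 3 and 4, carry the letter R, which they do not define, and no HFD library carries it. When limma was given this letter as a covariate, it called 0 genes for it at an adjusted p under 0.05, and 529 of 12802 genes and 0 of 25 collagens had an unadjusted p under 0.05. In the 8 libraries without the letter, mouse 2 is the only ND mouse. A fit of these 8 libraries has no spread within ND, so its calls are not listed. It is among the alternatives tallied at the end.

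Libraries that stood apart were looked for before the results. The skin markers (*Krt1*, *Krt5*, *Krt10*, *Krt14* and *Dsp*) summed to 111 FPKM in HFD mouse 12 and 139 FPKM in CLE mouse 11, against 0.449 to 2.06 FPKM in the other 10 libraries. Skeletal muscle markers were also highest in these libraries, at 5.83 and 15.8 FPKM. *Col17a1*, a transmembrane collagen of the epidermis, was highest in the same mice, at 0.882 and 1.12 FPKM, against at most 0.469 FPKM elsewhere. Without both mice, 14 collagens were called between HFD and ND, 10 between CLE and HFD and 6 between LU and HFD, where all 12 libraries gave 14, 12 and 7. With all 12 libraries, 14.9% of all genes tested were called higher in HFD than in ND. In the same fit 10.2% were called lower in CLE than in HFD and 7.66% lower in LU than in HFD. The shares without both mice are not given, so whether the lower counts are particular to collagens cannot be read from them. The 14 between HFD and ND were not the same genes, since *Col6a5* was not called without both mice (adjusted p = 0.0981 from limma). In the ND group, mouse 2 had the lowest value of all 12 libraries in 15 of the 24 tested collagens other than *Col20a1*. Its median ratio to the mean of ND mice 3 and 4 was 0.757 over these collagens and 1.01 over all genes tested. Adipocyte markers, which define the labelled tissue, summed to 25302 to 26840.0 FPKM in the ND group and 15209.5 to 17132 FPKM in the HFD group.

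Of the 44 collagens, 25 passed the filter on low values (7 fibrillar, 4 basement membrane and 14 other). Of the remaining 19, *Col2a1*, *Col11a1*, *Col11a2*, *Col24a1*, *Col4a3*, *Col6a4*, *Col7a1*, *Col8a2*, *Col10a1*, *Col9a1*, *Col9a2*, *Col9a3*, *Col19a1*, *Col22a1*, *Col13a1* and *Col25a1* were under 1 FPKM in each library. *Col4a6*, *Col17a1* and *Col26a1* each reached 1 FPKM in 1 library, with 1.64 FPKM as the highest value of the 19. The list thus included the cartilage collagens (types II, IX, X and XI) and those of anchoring fibrils and hemidesmosomes (types VII and XVII). *Col20a1* passed the filter but its value is uncertain. Of 32 rows with this name, 20 belong to a neighbouring gene (*Arfgap1* or *BX649560.1*) in GENCODE M21 and were left out, and the whole remaining value came from transcripts assembled from the reads. It was left out of the sums below.

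The upstream sequence of some members is shown so that collagens that rose and fell together can be set beside one that did not pass the test. Of the 44 collagens, 35 had an entry among the RefSeq promoters (GRCm38.p6), and *Col1a1*, *Col5a2*, *Col12a1* and *Col14a1* were among the 9 that did not. Shown are the 250 bases before the RefSeq start of 5 genes whose window overlaps no annotated exon, 5′ to 3′ on the strand of the gene. Capitals mark GGGCGG or CCGCCC, its reverse complement, and TATAAA on the gene's own strand. CCAAT was searched on both strands and is in none of these 5 windows.
*Col3a1* (chr1:45311288-45311537, plus strand): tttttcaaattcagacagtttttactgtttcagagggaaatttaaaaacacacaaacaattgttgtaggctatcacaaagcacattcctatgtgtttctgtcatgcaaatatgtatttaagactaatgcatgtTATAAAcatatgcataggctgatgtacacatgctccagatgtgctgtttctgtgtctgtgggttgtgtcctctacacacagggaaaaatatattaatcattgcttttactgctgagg
*Col5a1* (chr2:27886175-27886424, plus strand): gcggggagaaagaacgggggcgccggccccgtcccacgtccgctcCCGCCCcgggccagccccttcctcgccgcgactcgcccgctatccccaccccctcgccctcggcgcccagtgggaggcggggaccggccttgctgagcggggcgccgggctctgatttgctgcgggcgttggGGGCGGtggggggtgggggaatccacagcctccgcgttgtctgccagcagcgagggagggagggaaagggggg
*Col6a3* (chr1:90843972-90844221, minus strand): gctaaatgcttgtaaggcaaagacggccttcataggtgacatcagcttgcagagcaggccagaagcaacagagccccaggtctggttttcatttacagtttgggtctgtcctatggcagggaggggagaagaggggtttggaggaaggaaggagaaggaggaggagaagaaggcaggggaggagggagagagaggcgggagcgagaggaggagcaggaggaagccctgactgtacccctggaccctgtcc
*Col8a1* (chr16:57754738-57754987, minus strand): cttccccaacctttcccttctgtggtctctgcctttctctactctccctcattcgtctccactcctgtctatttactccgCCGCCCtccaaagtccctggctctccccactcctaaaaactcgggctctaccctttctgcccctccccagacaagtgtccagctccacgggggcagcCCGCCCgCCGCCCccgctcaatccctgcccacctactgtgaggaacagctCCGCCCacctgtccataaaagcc
*Col15a1* (chr4:47207762-47208011, plus strand): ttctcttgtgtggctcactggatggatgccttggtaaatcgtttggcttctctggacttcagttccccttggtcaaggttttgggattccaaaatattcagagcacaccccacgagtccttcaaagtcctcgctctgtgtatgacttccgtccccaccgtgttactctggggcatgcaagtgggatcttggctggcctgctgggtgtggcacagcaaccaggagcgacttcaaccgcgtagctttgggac

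The windows differed in the motifs they held. *Col3a1*, *Col5a1*, *Col6a3* and *Col8a1* were called higher in HFD than in ND and lower in CLE than in HFD, and *Col15a1* was called in neither. The *Col3a1* window held 1 TATAAA, with a GC content of 35.2%, and the *Col5a1* window 2 GC boxes (GGGCGG), with a GC content of 76.4%. That of *Col8a1* held 4 GC boxes, and those of *Col6a3* and *Col15a1* held none of the 3 motifs. Over the 21 tested collagens with an entry, which had 23 windows, 13 genes had at least 1 window with GGGCGG, 7 with CCAAT and 1 with TATAAA. Of the windows of the same length of all genes, 32.7% held GGGCGG, 33.8% CCAAT and 7.59% TATAAA. These are shares of single windows, while the collagen counts are of genes. The median GC content of the collagen windows was 60.8%, against 52.4% of all windows.

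The place of the genes also pairs some members. *Col4a1* (chromosome 8, 11198423 to 11312826) and *Col4a2* (chromosome 8, 11312805 to 11449287) lie head to head on opposite strands, and overlap by 22 bases in GENCODE M21 (GRCm38), where reads cannot be told apart since the kit does not mark strand. *Col3a1* (chromosome 1, 45311538 to 45349706) and *Col5a2* (chromosome 1, 45374321 to 45503282) lie 24.6 kb apart on opposite strands. *Col6a1* and *Col6a2* lie 85.2 kb apart on chromosome 10, and *Col6a5* and *Col6a6* lie 27.9 kb apart on chromosome 9.

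The mean level over the 12 libraries was over 100 FPKM in 8 collagens, 10 to 100 FPKM in 8, 1 to 10 FPKM in 8 and under 1 FPKM in 20. *Col3a1*, whose chains form type III fibrils, was the most abundant fibrillar collagen by mean FPKM (399). *Col4a1* (304 FPKM) led the basement membrane collagens and *Col6a1* (189 FPKM) the other collagens. In the ND mice *Col4a1* stood above *Col3a1* (237 ± 43.1 against 204 ± 48.2 FPKM; SD, n = 3), and the mice of this diet overlapped between the genes. In the HFD mice the order was the opposite, with 773 ± 68.9 FPKM for *Col3a1* and 346 ± 23.98 FPKM for *Col4a1* (SD, n = 3) and no overlap. Of the 25 tested collagens, the HFD group had the highest mean in 21, and the ND group had the lowest mean in 17.

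**Figure D1:**
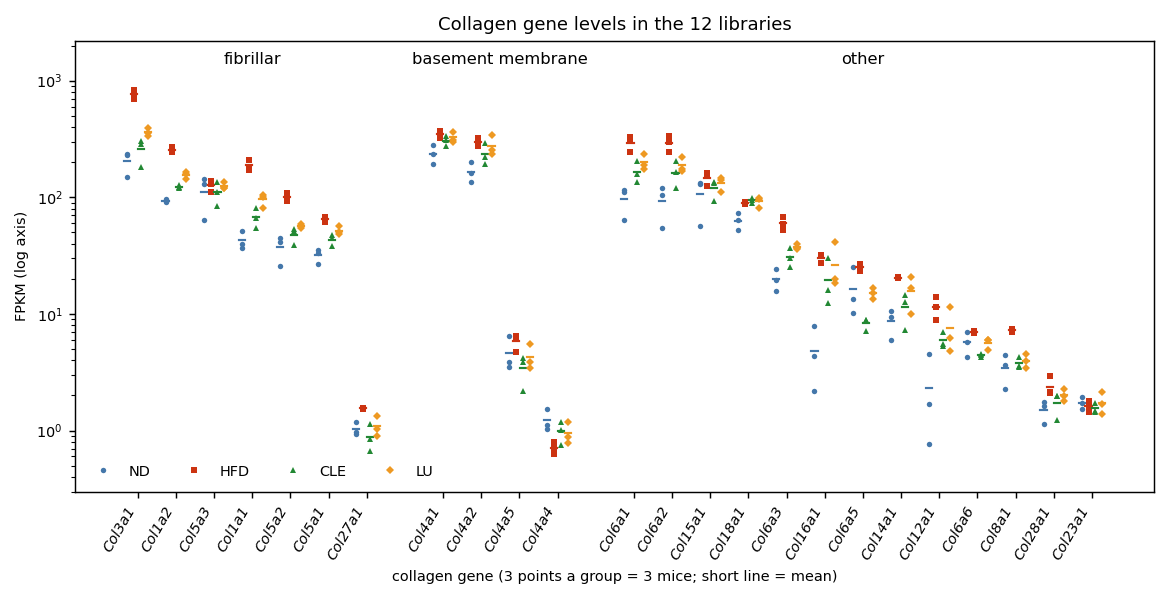
FPKM (log axis) of the 24 tested collagen genes without Col20a1, ordered by class and mean level; each group has 3 points, 1 a mouse, and a short line at the mean. The HFD points (squares) lie above the other groups in the abundant fibrillar genes apart from Col5a3, while the groups overlap or lie close in Col4a1, Col15a1 and Col18a1.

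The sum over 43 collagens shows how the classes moved as parts of the whole. It was 1358 ± 291 FPKM in the ND group, 3155 ± 279 in the HFD group, 1832 ± 301 in the CLE group and 2191 ± 159 in the LU group (SD, n = 3 each). The HFD mice did not overlap with any other group. Fibrillar collagens held 38.5% ± 1.71 of this sum in the ND group, 47.9% ± 0.581 in the HFD group, 35.5% ± 1.42 in the CLE group and 38.9% ± 3.62 in the LU group. Basement membrane collagens held 30.5% ± 2.72, 20.7% ± 0.504, 29.98% ± 1.26 and 27.7% ± 1.99 in the same order. The fibrillar share was thus higher, and the basement membrane share lower, in each HFD mouse than in any other mouse. The other collagens held between 28.5% and 35.2% in the 12 libraries. These shares are descriptions of summed FPKM, in which a few abundant genes weigh most.

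**Figure D2:**
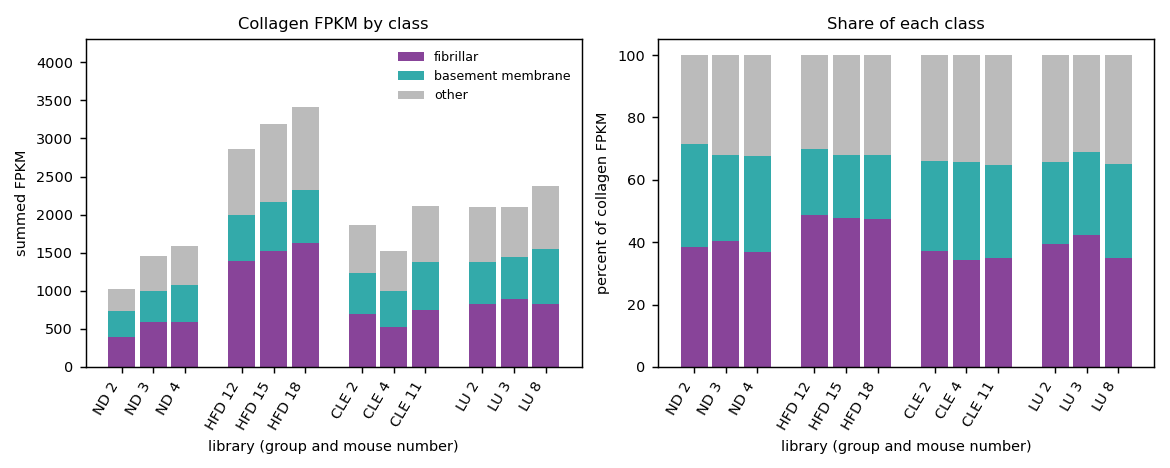
Stacked bars of summed collagen FPKM (left) and of the percent of it held by each class (right) in each of the 12 libraries. The fibrillar share is 47.5% to 48.6% in the 3 HFD mice and 34.4% to 42.2% in the other 9.

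The HFD was compared with the ND to show which collagens differed with the diet. Of the 25 tested collagens, 14 were called higher in the HFD group and 0 lower, while 14.9% of all 12802 genes tested were called higher and 10.8% lower. The HFD and ND mice did not overlap in 17 collagens that were higher and 2 that were lower in HFD (*Col4a4* and the uncertain *Col20a1*), against 30.2% and 29.4% of all genes tested. By class, 5 of 7 fibrillar, 1 of 4 basement membrane and 8 of 14 other collagens were called. The median log2 fold change was 1.44 in the fibrillar, 0.44 in the basement membrane and 0.81 in the other collagens, against -0.02 over all genes tested. Of 4 fits with another scaling or a covariate (equal totals, median ratios, quantiles, letter R), each called 14 higher. The 14 genes were not the same in each, since *Col6a5* was not called with the letter R as a covariate.

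The chains of types I and III, which form the main fibres of the stroma, were among those that rose. *Col1a1* was 37.1, 39.4 and 51.7 FPKM in the ND mice, 173, 181 and 209.5 in the HFD mice, 65.9, 54.3 and 81.4 in the CLE mice and 81.2, 106 and 101 in the LU mice. The HFD mice stood above each of the other mice and the ND mice below each of them, and HFD was higher than ND by 2.12 on the log2 scale (standard error 0.17, limma adjusted p = 2.2e-06). The partner chain *Col1a2* was 92.6, 97.3 and 90.6 FPKM in the ND mice, 251, 245 and 271 in the HFD mice, 128, 123 and 119.7 in the CLE mice and 158, 164 and 144 in the LU mice. None of its 4 groups overlapped, and its log2 fold change between HFD and ND was 1.44 (standard error 0.079, limma adjusted p = 5.9e-07). *Col3a1* was 148, 233 and 230.2 FPKM in the ND mice, 697, 789 and 832 in the HFD mice, 286, 182 and 305 in the CLE mice and 355, 393 and 336 in the LU mice. The lowest HFD mouse was above the highest mouse of the other groups, and the log2 fold change was 1.94 (standard error 0.21, limma adjusted p = 1.8e-05).

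Type V collagen, a minor part of type I fibrils that sets their width, split between its chains. *Col5a2* was 25.5, 41.5 and 44.9 FPKM in the ND mice, 93.3, 98.8 and 109 in the HFD mice, 53.04, 38.9 and 51.8 in the CLE mice and 59.03, 54.3 and 56.8 in the LU mice. *Col5a1* was 26.6, 33.3 and 35.5 FPKM in the ND mice, 60.9, 67.6 and 67.8 in the HFD mice, 44.6, 38.1 and 47.2 in the CLE mice and 49.9, 48.5 and 56.9 in the LU mice. Both rose in HFD against ND without overlap, with log2 fold changes of 1.44 (adjusted p = 6.8e-05 from limma) and 1.03 (adjusted p = 3.7e-05). The third chain, *Col5a3*, was more abundant than either and was 63.4, 142 and 129 FPKM in the ND mice, 111, 138 and 129.9 in the HFD mice, 112, 84.7 and 135 in the CLE mice and 121, 119.6 and 134 in the LU mice. Its groups overlapped, and its log2 fold change of 0.25 (95% interval -0.31 to 0.82) did not pass the test. The ratio of *Col5a3* to *Col5a1* was 2.38, 4.27 and 3.65 in the ND mice and 1.83, 2.04 and 1.92 in the HFD mice, with no overlap between them. *Col27a1*, a fibrillar collagen near the filter, had values of 1.19, 0.967 and 0.9398 FPKM in ND and 1.56, 1.56 and 1.54 FPKM in HFD. Its log2 fold change of 0.33 was below the fold threshold on the log2(FPKM + 1) scale, while its mean FPKM in HFD was 1.51 times that in ND.

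The basement membrane collagens differed less. *Col4a1* was 194, 237 and 280.1 FPKM in the ND mice, 324, 342 and 372 in the HFD mice, 307, 275 and 337 in the CLE mice and 312, 299.9 and 365 in the LU mice. It did not overlap between HFD and ND, and its log2 fold change of 0.56, at an adjusted p of 0.005 in limma, was under the fold threshold of 1.5. *Col4a2* was 136, 162 and 200.2 FPKM in the ND mice, 276, 298 and 321 in the HFD mice, 223, 195 and 289.8 in the CLE mice and 234, 257 and 342 in the LU mice. It was called higher by 0.86 on the log2 scale (standard error 0.18, limma adjusted p = 0.0024). The ratio of *Col4a1* to *Col4a2*, the chains of the common type IV molecule, was 1.42, 1.46 and 1.399 in the ND mice and 1.18, 1.15 and 1.16 in the HFD mice. *Col4a5* was called in neither direction (0.32, adjusted p = 0.274 from limma). *Col4a4* was low, with 1.53, 1.03 and 1.11 FPKM in ND and 0.7096, 0.797 and 0.626 FPKM in HFD. Its log2 fold change of -0.37 was under the fold threshold on the log2(FPKM + 1) scale, while its mean FPKM in HFD was 0.582 times that in ND.

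Among the other collagens, the 3 chains of the common type VI filament moved together. *Col6a1* was 63.3, 110.0 and 116 FPKM in the ND mice, 244, 306 and 331 in the HFD mice, 158, 136 and 206 in the CLE mice and 190.4, 176 and 235 in the LU mice. *Col6a2* was 54.7, 105 and 121 FPKM in the ND mice, 246, 298 and 336 in the HFD mice, 164, 119.7 and 204 in the CLE mice and 169.6, 176 and 222 in the LU mice. *Col6a3*, the longest of the chains, was 15.6, 19.5 and 24.2 FPKM in the ND mice, 52.2, 59.1 and 67.8 in the HFD mice, 30.00, 25.4 and 36.5 in the CLE mice and 36.3, 36.4 and 39.8 in the LU mice. In each gene the HFD mice stood above all other mice, and the log2 fold changes against ND were 1.63, 1.71 and 1.56 (adjusted p = 0.00014, 0.00034 and 1.6e-05 from limma). The ratio of *Col6a1* to *Col6a2* stayed near 1 in the 4 groups, with geometric means of 1.05 (ND), 1.001 (HFD), 1.03 (CLE) and 1.06 (LU).

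*Col6a5*, an alternative chain that can stand in place of the alpha 3 chain, had its lowest values in CLE. It was 25.3, 13.3 and 10.3 FPKM in the ND mice, 26.6, 25.3 and 23.5 in the HFD mice, 7.18, 8.93 and 8.79 in the CLE mice and 16.8, 15.2 and 13.4 in the LU mice. ND mouse 2 stood among the HFD mice, so the groups overlapped, and the call (log2 fold change 0.69, limma adjusted p = 0.031) was lost in 5 of 12 fits without 1 library (ND mouse 3, ND mouse 4 or any HFD mouse left out). Transcripts assembled from the reads (class code j) held 65.2% of its FPKM, and without them the log2 fold change was 0.15 (adjusted p = 0.76). *Col6a6*, of the same kind, had a log2 fold change of 0.29 and was not called.

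The fibril-associated collagens (FACITs), which coat fibrils and link them to other matrix, included the collagen with the largest fold change of the 25 tested. It was *Col16a1*, at 2.202, 4.35 and 7.91 FPKM in the ND mice, 27.3, 31.5 and 31.7 in the HFD mice, 12.5, 16.2 and 30.4 in the CLE mice and 20.02, 18.4 and 40.99 in the LU mice. Its log2 fold change between HFD and ND was 2.54 (standard error 0.40, limma adjusted p = 0.00029), and CLE mouse 11 and LU mouse 8 were above the lowest HFD mouse. *Col12a1* was 0.7598, 1.69 and 4.52 FPKM in the ND mice, 8.93, 11.6 and 13.9 in the HFD mice, 5.51, 5.31 and 6.96 in the CLE mice and 6.16, 4.83 and 11.5 in the LU mice, with a log2 fold change of 2.05 (adjusted p = 0.00078). Class code j transcripts held 69.9% of the FPKM of *Col16a1* and 76.1% of that of *Col12a1*, and without them the log2 fold changes were 2.12 and 1.45, both still called (adjusted p = 0.0045 and 0.00017). Without these transcripts *Col1a1* was also at 2.12, so *Col16a1* no longer stood above it. *Col14a1* was 5.996, 9.47 and 10.7 FPKM in the ND mice, 20.8, 20.5 and 20.2 in the HFD mice, 14.4, 12.7 and 7.33 in the CLE mice and 16.7, 20.7 and 10.02 in the LU mice, and it rose by 1.18 (adjusted p = 0.0042). *Col8a1*, a short-chain collagen of vessel walls, was 3.61, 2.26 and 4.41 FPKM in the ND mice, 7.36, 6.996 and 7.36 in the HFD mice, 3.49, 3.61 and 4.303 in the CLE mice and 4.56, 3.41 and 3.96 in the LU mice, and it rose by 0.93 (adjusted p = 0.00058).

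The multiplexins *Col15a1* and *Col18a1*, which sit at the basement membrane, were abundant but not called. *Col15a1* was 57.1, 129 and 131 FPKM in the ND mice, 124, 158 and 162 in the HFD mice, 132, 93.2 and 136 in the CLE mice and 147, 112 and 142 in the LU mice, and its log2 fold change of 0.56 had a 95% interval of -0.05 to 1.17. *Col18a1*, whose protein is the source of endostatin, was 52.05, 63.9 and 72.7 FPKM in the ND mice, 90.6, 90.5 and 87.5 in the HFD mice, 98.7, 90.1 and 95.2 in the CLE mice and 97.1, 80.7 and 98.95 in the LU mice. Its log2 fold change of 0.52, at an adjusted p of 0.0039 in limma, was under the fold threshold, and the ND mice lay below the mice of the other 3 groups. *Col23a1*, *Col28a1* and the uncertain *Col20a1* were under 3 FPKM in each library and were not called.

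The CLE group was compared with the HFD group to show which collagens differed with the extract on the same diet. Of the 25 tested collagens, 12 were called lower and 0 higher, while 10.2% of all genes tested were called lower and 6.35% higher. Those called were 5 of 7 fibrillar, 1 of 4 basement membrane and 6 of 14 other collagens, with class medians of -1.05, -0.27 and -0.73 and a median of 0.01 over all genes. In 16 collagens the CLE mice lay below the HFD mice without overlap, against 26.2% of all genes tested. The 3 HFD mice enter this comparison and the one with ND, so the comparisons are not independent.

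Chains of types I, III and V fell in CLE. *Col3a1* changed by -1.61 on the log2 scale (standard error 0.21, limma adjusted p = 0.00016), and its mean in CLE was 0.333 times that in HFD. *Col1a1* fell by 1.48 (standard error 0.17, limma adjusted p = 7.4e-05) and *Col1a2* by 1.05 (standard error 0.079, limma adjusted p = 2e-05). *Col5a2* fell by 1.06 (limma adjusted p = 0.0012) and *Col5a1* by 0.59 (limma adjusted p = 0.0032). The change of *Col5a1* was just over the fold threshold. Its call was kept in 9 of 12 fits without 1 library and lost with equal totals or quantiles. *Col5a3* had a log2 fold change of -0.21 (95% interval -0.78 to 0.36). *Col27a1* had one of -0.45 (limma adjusted p = 0.0074), which was under the fold threshold on the log2(FPKM + 1) scale. Its mean FPKM in CLE was 0.567 times that in HFD, a difference that this scale shrinks at low FPKM.

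The abundant type IV chains did not pass the test, with log2 fold changes of -0.18 for *Col4a1* (95% interval -0.47 to 0.12) and -0.35 for *Col4a2* (95% interval -0.75 to 0.05). For both genes, CLE mouse 11 lay within the HFD range. The type IV chain called was *Col4a5*, whose protein is a chain of special basement membranes such as that of the kidney, with 6.398, 6.53 and 4.69 FPKM in HFD and 4.17, 3.89 and 2.17 FPKM in CLE. Its log2 fold change of -0.66, at a limma adjusted p of 0.0472, was lost without HFD mouse 12 and CLE mouse 11, the libraries with skin markers (-0.38, adjusted p = 0.31), and in 6 of 12 fits without 1 library.

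Of the other collagens, *Col6a5* fell most, by 1.49 (standard error 0.24, limma adjusted p = 0.00068), and each CLE mouse was below each mouse of the other 3 groups. *Col6a1*, *Col6a2* and *Col6a3* fell by 0.83, 0.87 and 0.95 (adjusted p = 0.017, 0.029 and 0.0011 from limma). Their calls were kept in 9, 8 and 12 of 12 fits without 1 library. *Col8a1* fell by 0.78 (limma adjusted p = 0.0031). *Col14a1* fell by 0.83 (limma adjusted p = 0.037), with CLE mouse 11 well below the other CLE mice, and without HFD mouse 12 and CLE mouse 11 its log2 fold change was -0.56 (adjusted p = 0.21). The FACITs with the large rise on the HFD did not pass the test here, with -0.68 for *Col16a1* (95% interval -1.55 to 0.19) and -0.84 for *Col12a1* (adjusted p = 0.103). *Col15a1* and *Col18a1* had log2 fold changes of -0.30 and 0.08, with intervals of -0.92 to 0.31 and -0.18 to 0.34. The count of 12 fell to 7 without HFD mouse 15 and to 7 without CLE mouse 4, the CLE mouse with the lowest *Col3a1*.

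The LU group was compared with the HFD group in the same way. Here 7 of the 25 tested collagens were called lower and 0 higher, while 7.66% of all genes tested were called lower and 4.79% higher. Those called were 4 fibrillar, 0 basement membrane and 3 other collagens, with class medians of -0.72, -0.11 and -0.35 and a median of 0.03 over all genes. In 12 collagens the LU mice lay below the HFD mice without overlap, against 22.1% of all genes tested. Of the 4 basement membrane collagens, *Col4a5* had the largest change in LU (-0.39, adjusted p = 0.239 from limma).

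*Col3a1* fell by 1.09 (standard error 0.21, limma adjusted p = 0.003), *Col1a1* by 0.97 (standard error 0.17, limma adjusted p = 0.0017), *Col5a2* by 0.81 (limma adjusted p = 0.008) and *Col1a2* by 0.72 (limma adjusted p = 0.0002). The highest LU mouse was below the lowest HFD mouse in each of these genes. *Col8a1* fell by 0.73 (limma adjusted p = 0.0063) and *Col6a3* by 0.65 (limma adjusted p = 0.013). *Col6a5* had a log2 fold change of -0.70, at a limma adjusted p of 0.0485, a call kept in 2 of the 12 fits without 1 library and lost without class code j transcripts (-0.37, adjusted p = 0.48). The partner chains *Col6a1* and *Col6a2* had log2 fold changes of -0.55 and -0.63 (adjusted p = 0.0984 and 0.109), and *Col5a1* had -0.33 (adjusted p = 0.0598 from limma), with each LU mouse below each HFD mouse in the 3 genes. *Col4a1* and *Col4a2* had log2 fold changes of -0.09 (95% interval -0.39 to 0.21) and -0.12 (95% interval -0.52 to 0.28).

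**Figure D3:**
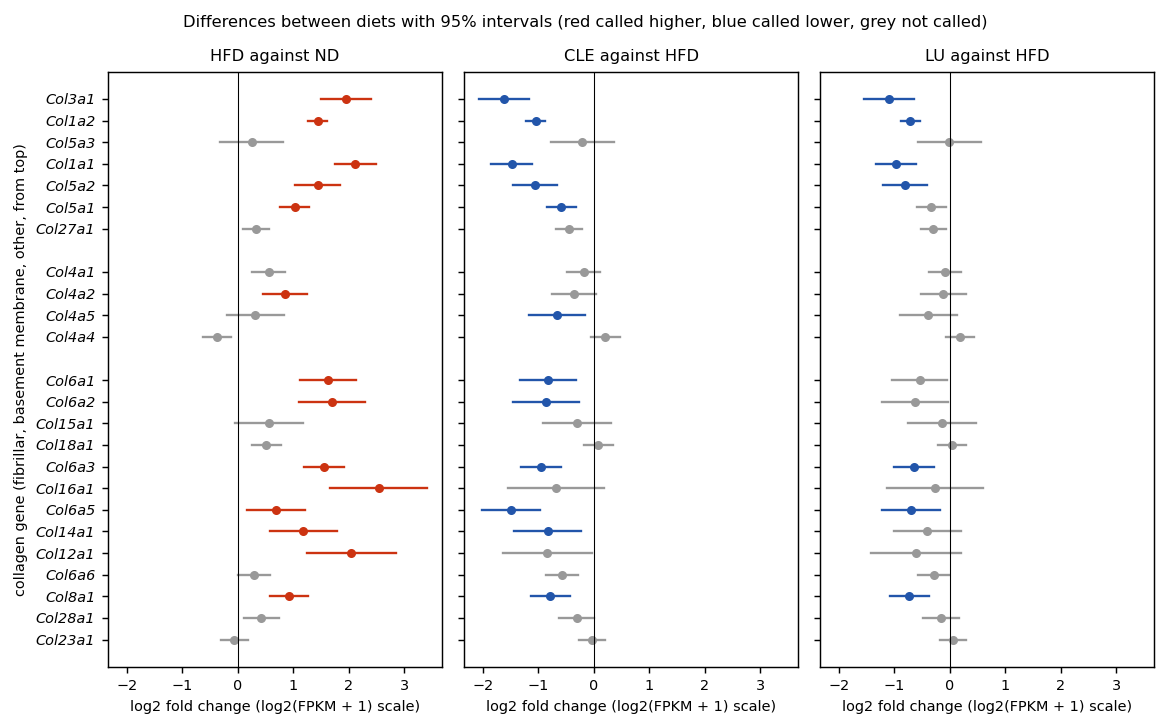
Log2 fold change with its 95% interval from limma for the 24 tested collagens without Col20a1, in HFD against ND, CLE against HFD and LU against HFD; red is called higher, blue called lower and grey not called. The intervals of the fibrillar Col1a1, Col1a2, Col3a1, Col5a1, Col5a2 and Col27a1 lie to the right of 0 in the first panel and to the left in the others. Those of Col6a1, Col6a2, Col6a3, Col6a5, Col6a6 and Col8a1 do the same.

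The CLE and LU groups were set against each other, although an extract and a single compound were given in different amounts. Limma called 0 of the 25 collagens, and 0.00781% of all genes tested. The 4 collagens with the smallest unadjusted p were *Col1a2* (log2 fold change -0.33, 95% interval -0.50 to -0.16), *Col6a5* (-0.80, -1.32 to -0.28), *Col1a1* (-0.51, -0.88 to -0.15) and *Col3a1* (-0.52, -0.97 to -0.07). Each was lower in CLE, with the same adjusted p of 0.898 from limma, so the test established no difference between extract and luteolin. In 6 collagens the CLE mice lay below the LU mice without overlap, while this held for 6.29% of all genes tested. For *Col4a1* the interval was -0.38 to 0.21 and for *Col8a1* -0.40 to 0.30.

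Both groups were also compared with the ND group. Between CLE and ND 3 collagens were called higher and 0 lower, while 2.11% of all genes tested were called higher and 0.875% lower. *Col16a1* was higher by 1.86 (limma adjusted p = 0.025), *Col1a1* by 0.64 (limma adjusted p = 0.0496) and *Col18a1* by 0.59 (limma adjusted p = 0.021). Without class code j transcripts *Col16a1* (1.54, limma adjusted p = 0.1) and *Col1a1* (0.64, limma adjusted p = 0.071) were not called. The call of *Col1a1* was kept in 2 of 12 fits without 1 library. The count changed with single mice, as 0 collagens were called without ND mouse 2 or without CLE mouse 11, 1 without ND mouse 3 or CLE mouse 2, and 6 without ND mouse 4. *Col6a5* was lower in each CLE mouse than in each ND mouse, with a log2 fold change of -0.81 that did not pass the test (limma adjusted p = 0.068).

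Between LU and ND 11 collagens were called higher and 0 lower, while 4.97% of all genes tested were called higher and 1.59% lower. The fibrillar genes were *Col1a1* (1.15), *Col3a1* (0.85), *Col1a2* (0.73), *Col5a1* (0.69) and *Col5a2* (0.63). The others were *Col4a2* (0.74), *Col6a1* (1.09), *Col6a2* (1.08), *Col6a3* (0.91), *Col12a1* (1.44) and *Col16a1* (2.27). The adjusted p of *Col1a1* was 0.0019 and that of *Col5a2*, the highest of the 11, 0.0448 (limma). Without class code j transcripts *Col12a1* (0.67, limma adjusted p = 0.059) and *Col5a2* (0.64, limma adjusted p = 0.06) were not called here. The call of *Col5a2* was kept in 4 of 12 fits without 1 library. The count was 5 without ND mouse 2, 7 without LU mouse 2 and 6 without LU mouse 8. The call of *Col18a1* against ND in CLE alone is no difference between CLE and LU, whose values gave a log2 fold change of 0.04 (95% interval -0.22 to 0.30) for it.

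Ratios between chains within a library do not depend on its scaling, and 11 were computed. The ratio of *Col1a1* to *Col1a2*, the chains of type I collagen, was 0.4005, 0.405 and 0.5702 in the ND mice, 0.689, 0.737 and 0.772 in the HFD mice, 0.517, 0.443 and 0.6798 in the CLE mice and 0.514, 0.642 and 0.698 in the LU mice. It was higher in each HFD mouse than in each ND or CLE mouse, and overlapped between HFD and LU. The ratio of *Col5a1* to *Col5a2* was 0.653, 0.684 and 0.622 in the HFD mice and lay between 0.791 and 1.04 in the other 9 mice. The ratio of *Col1a1* to *Col4a1*, a fibrillar chain over a basement membrane chain, had geometric means of 0.181 (ND), 0.541 (HFD), 0.217 (CLE) and 0.293 (LU), and no pair of the 4 groups overlapped. The ratio of *Col6a5* to *Col6a3* spread most in the ND mice, at 1.62, 0.681 and 0.425, and lay between 0.239 and 0.352 in the CLE mice. With 3 mice a group an exact permutation test (two-sided) of such a ratio cannot go below p = 0.1, which each pair of groups without overlap reached, so these ratios are given as descriptions.

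**Figure D4:**
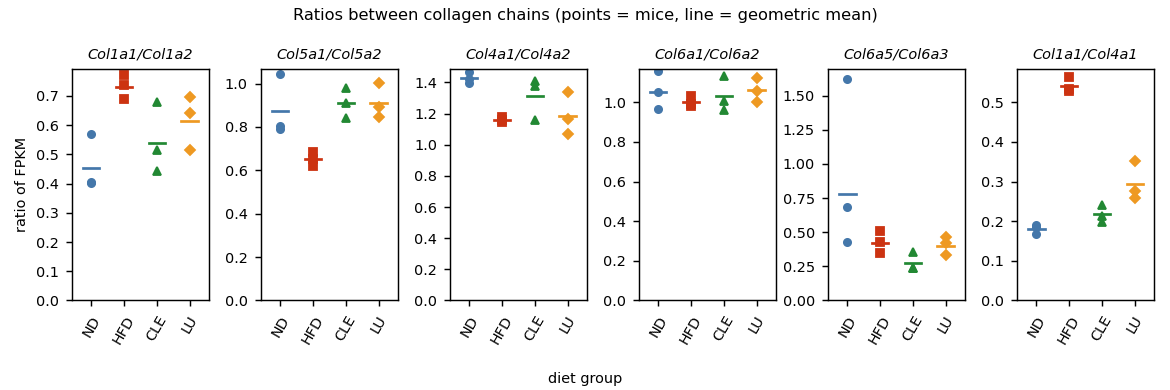
Ratios of FPKM between collagen chains in each mouse (points) with the geometric mean of each group (line), for 6 pairs of genes; each panel starts at 0. The Col1a1/Col4a1 ratio is 0.528 to 0.563 in the HFD mice and 0.167 to 0.352 in the other 9, while the Col6a1/Col6a2 ratio lies between 0.963 and 1.16 in all 12.

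A list of 54 genes that make, process, bind or degrade collagen was read beside the collagens, of which 47 passed the filter. In HFD against ND 22 were called higher and 1 lower, in CLE against HFD 13 lower and 1 higher, and in LU against HFD 10 lower and 1 higher, with medians of 0.53, -0.32 and -0.19. Of all genes tested, 14.9% were called higher and 10.8% lower in the first comparison, 10.2% lower and 6.35% higher in the second and 7.66% lower and 4.79% higher in the third. Of the 18 tested genes of folding and modification in the cell, 5 were called higher on the HFD (14.9% of all genes tested), and 1 was called lower in CLE and in LU (10.2% and 7.66% of all genes tested). The count in CLE and in LU is below the share of all genes. That gene was *Colgalt1*, which adds galactose to hydroxylysine, with 38.5 ± 3.55 FPKM in ND, 87.4 ± 3.26 in HFD, 52.8 ± 7.804 in CLE and 57.9 ± 7.12 in LU (SD, n = 3). *Serpinh1*, the collagen chaperone HSP47, rose by 0.68 on the HFD (limma adjusted p = 0.028), and *Sparc*, which binds collagen on its way out of the cell, by 1.13 (limma adjusted p = 0.0002). Both had log2 fold changes against HFD that did not pass the test (-0.34 and -0.46 in CLE).

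Of the tested genes that act outside the cell, 4 of 6 of propeptide removal, 3 of 5 of cross-linking and 2 of 4 fibril proteoglycans were called higher on the HFD, against 14.9% of all genes tested. *Bmp1*, the procollagen C-proteinase, rose by 0.99 on the HFD (limma adjusted p = 6.4e-05), and its enhancer *Pcolce* by 1.32 (limma adjusted p = 9.9e-05). *Pcolce* fell in CLE and in LU, with log2 fold changes of -1.01 and -0.78. Of the cross-linking enzymes, *Loxl1* rose by 1.00 and *Loxl3* by 1.01 (limma adjusted p = 2.5e-05 and 0.00078). *Lox*, the most abundant of them with a mean of 67.4 FPKM in HFD, was not called (0.15, limma adjusted p = 0.54). *Lum*, a proteoglycan on the surface of fibrils, was 25.3 ± 3.46 FPKM in ND, 102 ± 3.83 in HFD, 29.96 ± 3.58 in CLE and 47.02 ± 6.19 in LU (SD, n = 3), and *Bgn* rose by 1.40 (limma adjusted p = 1.7e-06). Both fell in CLE (-1.74 and -0.96) and in LU (-1.11 and -0.62). The other 2 proteoglycans, *Dcn* and *Fmod*, had negative log2 fold changes on the HFD and were not called (-0.31 and -0.85, limma adjusted p = 0.21 and 0.091).

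Of 6 tested genes of degradation, 5 were called higher and 1 lower on the HFD, and of 8 receptors 3 were called higher, against 14.9% higher and 10.8% lower of all genes tested. *Ctsk*, a collagen-cleaving cathepsin, was 8.55 ± 0.411 FPKM in ND and 104 ± 13.9 FPKM in HFD (SD, n = 3), and it changed by -2.46 in CLE and -1.92 in LU against HFD (limma adjusted p = 7.1e-05 and 0.00062). *Mmp2*, a gelatinase, rose by 1.61 and *Mmp14*, its activator at the cell surface, by 0.96 on the HFD (limma adjusted p = 3e-05 and 4.6e-05), and both fell in CLE (-1.35 and -0.85) and LU (-1.02 and -0.65). *Mmp9*, the other gelatinase, went the other way, with 3.13 ± 0.712 FPKM in ND, 0.633 ± 0.149 in HFD, 1.68 ± 0.522 in CLE and 1.79 ± 0.841 in LU. Of the receptors, *Mrc2*, which takes up cleaved collagen, was 6.67 ± 1.75 FPKM in ND and 65.9 ± 6.02 in HFD, and *Lair1*, an inhibitory collagen receptor of leukocytes, 0.857 ± 0.298 and 18.9 ± 5.097 FPKM. Both fell in CLE (-0.87 and -2.48), and in LU *Lair1* fell (-2.17) while *Mrc2* did not pass the test (-0.51).

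Markers of the cell types in the tissue were read beside the collagens. The 6 macrophage markers summed to 297 to 465 FPKM in ND, 2146 to 2469 in HFD, 534 to 799 in CLE and 849.9 to 978 in LU, and 6 of 6 were called higher on the HFD and 6 of 6 lower in CLE and in LU. They thus moved with the fibrillar collagens. The part of this list and of the others in the collagen results was not tested. The 8 fibroblast and progenitor markers summed to 1351 to 1479 FPKM in ND, 1095 to 1287 in HFD, 925 to 1296 in CLE and 1069 to 1358 in LU. *Dcn* and *Dpt*, with means of 611 and 508 FPKM in ND, weigh most in this sum. Of the 8 markers, *Pdgfrb* and *Lum* were called higher and *Ly6a* lower on the HFD, *Lum* was called lower in CLE, and in LU *Lum* was called lower and *Ly6a* higher. *Lum* also belongs to the list of fibril proteoglycans. The 5 endothelial markers summed to 198 to 322, 158 to 266, 249 to 359.9 and 282 to 344 FPKM in ND, HFD, CLE and LU, with 1 called lower on the HFD, and 2 called higher in CLE and 3 in LU. Of the 6 adipocyte markers 4 were called lower and 1 higher on the HFD, 4 higher and 1 lower in CLE, and 2 higher and 1 lower in LU. Their sum was 15209.5 to 17132 FPKM in HFD, 22535 to 24177 in CLE and 21077 to 26104 in LU, while *Lep*, the gene of the hormone leptin, had means of 248 FPKM in ND, 1245 in HFD, 593 in CLE and 572 in LU. The 5 mural markers summed to 182 to 322 FPKM in ND, 173 to 195 in HFD, 264 to 301 in CLE and 281 to 334 in LU, with 1 called lower on the HFD and 1 (*Acta2*) called higher in CLE and in LU. The 5 mesothelial markers summed to 9.43 to 53.3 FPKM in ND, 2.29 to 7.01 in HFD, 6.904 to 11.9 in CLE and 7.48 to 15.6 in LU, with 4 called lower on the HFD and 1 called higher in CLE and in LU. Liver markers reached 34.4 FPKM in ND mouse 2, epididymis markers at most 5.69 FPKM and cartilage markers at most 5.098 FPKM, with 1 of 5 epididymis markers and 0 of 5 cartilage markers at 0 in each library.

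**Figure D5:**
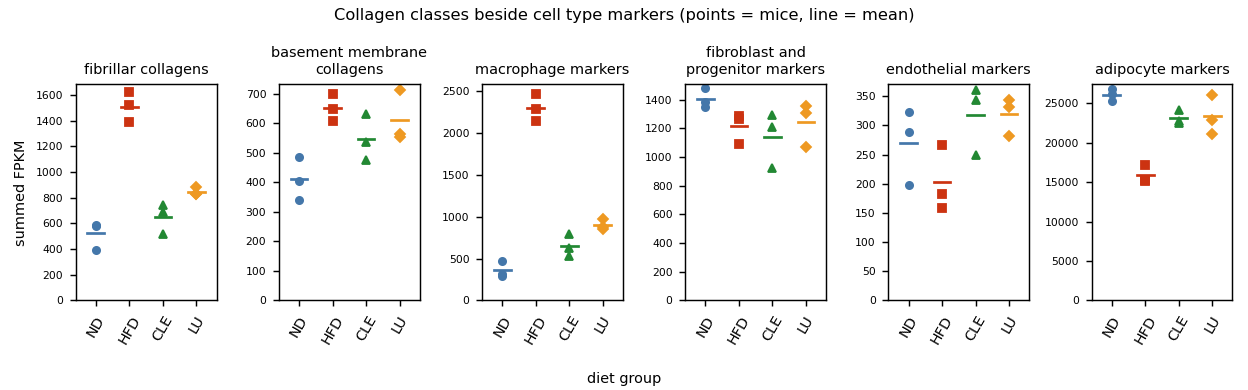
Summed FPKM of the fibrillar and basement membrane collagens and of 4 lists of cell type markers in each mouse (points) with group means (lines); each panel starts at 0. Fibrillar collagens and macrophage markers are highest in the HFD mice without overlap. Fibroblast and progenitor markers overlap between HFD, CLE and LU, and are higher in the ND mice than in the HFD mice without overlap.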

How the data were processed

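RNA of epididymal adipose tissue was sequenced by the authors (TruSeq RNA, paired ends, a kit that does not mark strand), and their processing notes name CASAVA 1.8.2, Bowtie2 2.2.3, TopHat2 2.0.12 and Cufflinks 2.2.1. The genome build is not given in the sources used here. The deposited values are FPKM for 152210 transcripts. Of 15 columns of FPKM, 3 belong to none of the samples given and were left aside. The column of ND mouse 4 is spelled with another letter than its label and was assigned by its number and its letter R. Columns with the authors' own comparisons of groups were not used.

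Rows were summed per gene, with transcripts assigned through GENCODE M21, where 77000 of 78786 known transcripts were found and 247 rows could not be placed. All 12 libraries entered 1 limma fit (R 4.3.3, limma 3.58.1) on log2(FPKM + 1), without covariates, tested on simulated data. Genes needed 1 FPKM in 3 libraries. Sums, ratios and exact permutation tests used Python 3.11.15, pandas 2.3.3, numpy 2.4.6 and scipy 1.17.1, and figures matplotlib 3.10.9. Named were the collagens called and the most abundant of each class, their partner chains, and up to 15 called genes of the pathway list. *Col15a1*, *Col23a1*, *Col27a1* and *Col28a1*, and *Lox*, *Dcn* and *Fmod* of the pathway list, were named after their values were seen. The members and lists were chosen with earlier results of these data known. Alternatives were other pseudocounts, filters, scalings, covariates, transcript choices and left-out libraries. Leaving out both libraries with skin markers, and the fit without the block in the same 7 libraries, were chosen after seeing the data.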

Additional observations from a re-analysis of the deposited data

How the results depend on the processing

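Over the alternatives tried, 13 to 20 collagens were called between HFD and ND (20, with 18 higher and 2 lower, at the adjusted p alone), 7 to 14 between CLE and HFD, 5 to 8 between LU and HFD, and 0 between CLE and LU in each. The shares of all genes called under each alternative are not given in this section. Its counts therefore cannot be read against the shares given above, and show only how far the calls depend on the setting. The number tested was 44 with no filter, 18 with a mean of at least 5 FPKM, 23 with the highest transcript, 21 without class code j transcripts and otherwise 24 or 25. Between CLE and HFD the count without 1 library was 7 to 12. Between CLE and ND it was 0 to 6 without 1 library, 1 with no filter on low FPKM, 0 with only the groups compared and 0 without the 2 libraries with skin markers. Between LU and ND it was 5 to 13 without 1 library and 7 with only the groups compared. The log2 fold change of *Col6a5* between HFD and ND reversed to -0.0132 without the libraries with the letter R, where mouse 2 is the only ND mouse. Of 1199 values for single genes under alternatives, 1038 kept direction and side of the threshold and 160 kept direction only. The causes were not tested, and without read counts the depth behind low FPKM is unknown.

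Mouse numbers restart in each group, and deviations of same-numbered mice correlated at -0.103 to 0.185, so the numbers were not taken as pairing. With the number as a replicate block (7 libraries), 0 collagens were called between CLE and ND and 3 between LU and ND, against 0 and 5 in the same 7 libraries without the block. The mice did not each correlate best with the mouse of their own number. No other comparison had 2 shared numbers.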
